A study of Mus musculus with 24 samples.

Results

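The 7 genes Il33, Il1rl1, Retnla, Tslp, Il4ra, Il13ra1 and Il13ra2 form a set of alarmins, receptors and a target gene of type 2 immunity, described here in cells sorted from the lungs of irradiated mice. The 7 genes were found by symbol among 48795 gene identifiers in each of 2 tables of normalised counts, 1 for epithelial and 1 for mesenchymal cells. They were chosen by their place in this pathway together with differences between the groups seen in both tables, so every value of theirs below is a description, no p-value is given for them, and nothing is supported with them. Of the 7 genes, Il33, Il4ra, Il13ra1 and Retnla passed the filter on low values in the epithelial table, and Il33, Il4ra, Il13ra1 and Tslp passed it in the mesenchymal table. Il1rl1 and Il13ra2 passed in neither.

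RNA came from female Balb/c mice aged 8 weeks, 4 per group with 1 library each, which made 24 libraries in 6 groups. The labels do not say whether the epithelial and mesenchymal libraries came from the same mice. Depleted mice received 13 Gy to the lungs and a daily anti-Ly6G antibody, which binds a neutrophil surface protein. Irradiated mice received the same dose and a control IgG, and sham mice received a mock exposure and the control IgG. All lungs were taken 7 days after exposure. Cells negative for CD45, CD31 and Ter119 (leukocyte, endothelial and erythroid markers) were sorted by EpCAM into positive (epithelial) and negative (mesenchymal) fractions, although the protocol text writes CD45 a second time where the cell type entries have CD31. No group had the Ly6G antibody without irradiation, so an action of the antibody alone and one that needs irradiation cannot be told apart.

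IL-33 is held in the nucleus of barrier and stromal cells, is released on damage, and signals through a receptor made of ST2 (the product of Il1rl1) and the accessory chain IL1RAP. TSLP is a second alarmin of barrier cells. Both act on cells such as group 2 innate lymphoid cells, which answer with IL-5 and IL-13. IL-4 and IL-13 signal through IL-4R alpha, paired with the common gamma chain or with IL-13R alpha 1, and activate the transcription factor STAT6. IL-13R alpha 2 binds IL-13 and is best known as a decoy. Retnla encodes RELM alpha, a secreted protein known in mice as a marker of type 2 responses in macrophages and in airway and alveolar epithelium.

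Epithelial libraries held 8159062 to 13373329 recovered reads, and mesenchymal libraries 7366672 to 11408083. Where a gene has 0 reads, up to 3 remain possible. On the scale of normalised counts (reads over a library's size factor, as the authors computed it) this limit is 2.36 to 3.81 for epithelial and 2.48 to 3.66 for mesenchymal libraries. These limits cover counting error only. The marker levels match the EpCAM gate in the labels. Summed alveolar type 2 markers reached 905793 to 1028680 in epithelial libraries and 4182 to 14497 in mesenchymal libraries, and pan-mesenchymal markers 140400 to 236106 in mesenchymal libraries and 7039 to 11047 in epithelial libraries. Endothelial markers were still read despite the CD31 gate. They summed to 2899 to 4214 in depleted, 2958 to 4983 in irradiated and 1916 to 2522 in sham epithelial libraries. In mesenchymal libraries they were 3011 to 5432, 4041 to 6690 and 1783 to 4192, and their part in the values below was not tested. Neutrophil markers say little on whether neutrophils were removed, since the gate excluded CD45-positive cells. Because each table was scaled on its own, no level was tested between them. In sorted bulk RNA, fewer cells of a type and less RNA per cell cannot be told apart.

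The windows just upstream of the annotated starts are shown for the 4 genes that were higher in depleted libraries in at least 1 fraction, because IL-4 and IL-13 act through STAT6 and the windows can be searched for its core site. Entries were found for 6 of the 7 genes in RefSeq sequence of build GRCm38.p6, and windows that reached the annotated gene start were ended before it. The window of the downstream Il33 start lies inside the annotated gene. Capitals mark TTCNNNNGAA, the core site of STAT6, and TTGCNNAA, a core site of C/EBP factors. TTCNNNGAA (other STAT factors) and TGANTCA (AP-1) were searched too, on both strands. Retnla lies at chr16:48842551-48844461 (plus strand), Il33 at chr19:29925114-29960718 (plus), Il4ra at chr7:125552120-125579474 (plus) and Il13ra1 at chrX:36112110-36171259 (plus), by GENCODE M21 on GRCm38. Il1rl1 and Il13ra2 lie at chr1:40429570-40465415 (plus) and chrX:147383476-147429192 (minus). The windows, all on the plus strand, read as follows.
Retnla, chr16:48842359-48842550: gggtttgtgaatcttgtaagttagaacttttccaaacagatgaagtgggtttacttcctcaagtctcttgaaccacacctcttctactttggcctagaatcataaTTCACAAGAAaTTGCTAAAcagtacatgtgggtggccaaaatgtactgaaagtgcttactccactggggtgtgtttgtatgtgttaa
Il33, upstream start, chr19:29924863-29925112: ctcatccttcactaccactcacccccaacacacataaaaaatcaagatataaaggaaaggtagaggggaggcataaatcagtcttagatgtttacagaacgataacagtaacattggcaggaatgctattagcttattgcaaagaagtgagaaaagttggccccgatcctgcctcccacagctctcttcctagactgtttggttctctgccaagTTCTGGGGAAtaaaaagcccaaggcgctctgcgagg
Il33, downstream start, chr19:29945540-29945789: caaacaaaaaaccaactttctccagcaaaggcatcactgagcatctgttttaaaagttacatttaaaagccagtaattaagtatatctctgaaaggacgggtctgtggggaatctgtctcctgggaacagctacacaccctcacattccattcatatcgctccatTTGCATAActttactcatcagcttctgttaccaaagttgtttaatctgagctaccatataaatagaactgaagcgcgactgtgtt
Il4ra, chr7:125552021-125552119: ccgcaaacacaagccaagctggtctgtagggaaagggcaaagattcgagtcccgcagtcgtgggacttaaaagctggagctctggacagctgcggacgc
Il13ra1, chrX:36111858-36112107: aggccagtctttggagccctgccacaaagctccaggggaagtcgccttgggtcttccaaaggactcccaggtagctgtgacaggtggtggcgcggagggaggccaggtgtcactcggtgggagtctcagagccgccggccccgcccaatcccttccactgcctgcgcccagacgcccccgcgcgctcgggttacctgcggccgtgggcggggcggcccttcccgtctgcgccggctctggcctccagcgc

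The Retnla window held a STAT6 core 145 bases and a C/EBP core 134 bases before the RefSeq start, side by side with 1 base between them. The upstream Il33 window held a STAT6 core 36 bases before its start, and the downstream one held a C/EBP core 85 bases before its start. The Il4ra window, of 99 bases, and the Il13ra1 window held none of the 4 letter patterns. Of the windows not shown, 1 of Il1rl1 held a C/EBP core 34 bases and that of Il13ra2 an AP-1 pattern 193 bases before its start. Among 32851 windows of 250 bases, 5.85% held the STAT6 core, 7.02% the STAT pattern, 6.75% the AP-1 pattern and 9.56% the C/EBP core. A match is a description of letters only. Counts per gene do not separate transcripts of the 2 Il33 starts, so the start in use in either fraction was not measured.

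Il33 was several-fold higher in mesenchymal cells of depleted mice than in those of either other group. Mesenchymal normalised counts were 1341, 1087, 701 and 1028 in depleted libraries (replicates 1 to 4), 300.2, 255, 219.7 and 190.3 in irradiated libraries, and 208, 211, 230.2 and 250.3 in sham libraries. The lowest depleted library lay above the highest of the other 8, while irradiated and sham libraries overlapped. Group means were 1039 ± 264 in depleted, 241 ± 47.3 in irradiated and 225 ± 19.6 in sham libraries (SD, n = 4 each). The log2 change was 2.09 ± 0.179 (SE of the limma fit) for depleted against irradiated, or 4.24-fold, and 2.17 ± 0.179 for depleted against sham. For irradiated against sham it was 0.08 ± 0.179.

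Epithelial cells held Il33 at a high level in all groups. Counts were 2438, 2686, 2887 and 2581 in depleted, 2577, 2347, 2487 and 2177 in irradiated, and 2685, 2476, 2509.6 and 2860.0 in sham libraries. The 3 groups overlapped, with means of 2648 ± 189, 2397 ± 175 and 2633 ± 177 in depleted, irradiated and sham libraries (SD, n = 4 each). The log2 change for depleted against irradiated was 0.14 ± 0.0659, and for depleted against sham 0.01 ± 0.0659. Averaged over 12 libraries, Il33 stood at the 96.8th percentile of tested genes in the epithelial table and at the 79.7th in the mesenchymal table. The difference between the fractions in the response of Il33 was not tested.

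Tslp, the other alarmin, passed the filter in the mesenchymal table alone, and its groups there lay close together. Mesenchymal counts were 111, 112, 146 and 127 in depleted, 81.5, 92.2, 95.6 and 123 in irradiated, and 139, 113, 95.9 and 103 in sham libraries. All 3 groups overlapped, and the log2 change was 0.34 ± 0.149 for depleted against irradiated and 0.14 ± 0.149 for depleted against sham. In epithelial libraries Tslp had 3 to 6 reads in depleted, 4 to 14 in irradiated and 6 to 11 in sham libraries, close to the limit that a count of 0 allows.

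Il1rl1, the IL-33 receptor chain, was near that limit in both fractions. Epithelial libraries gave 7.86, 7.63, 3.39 and 15.6 normalised counts in depleted, 3.92, 5.51, 4.86 and 5.63 in irradiated, and 3.90, 2.12, 0.893 and 2.08 in sham libraries. These rest on 29, 24 and 9 reads summed over the depleted, irradiated and sham groups. The irradiated libraries lay just above the sham libraries, and the depleted libraries overlapped both. In mesenchymal libraries the sums were 26, 27 and 29 reads in depleted, irradiated and sham groups, and all groups overlapped. Since the gate excluded CD45-positive cells, the receptor on leukocytes was not measured. Counts per gene do not separate the membrane and soluble forms of ST2.

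**Figure D1:**
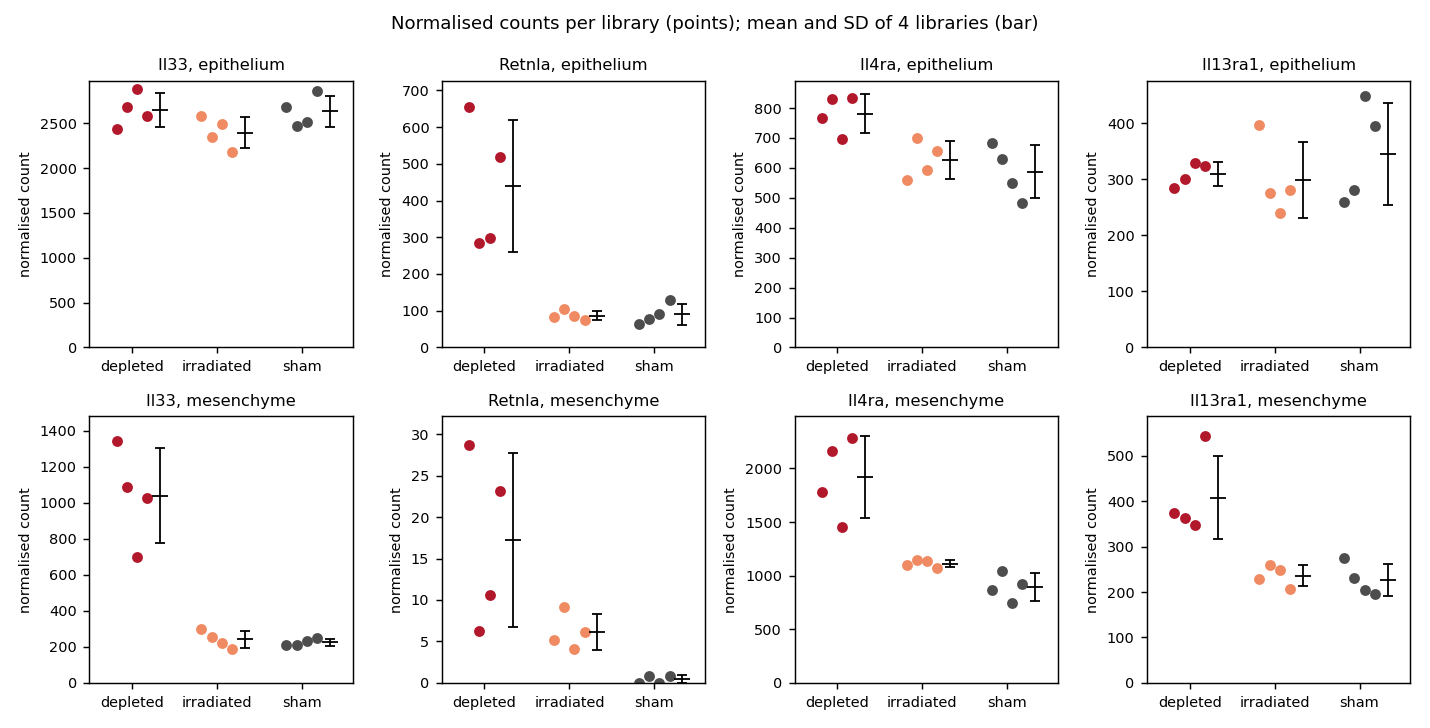
Normalised counts of Il33, Retnla, Il4ra and Il13ra1 (y axis, linear, from 0) in each library (points) with the mean and SD of 4 libraries (bar), for depleted, irradiated and sham mice, epithelium above and mesenchyme below. Mesenchymal Il33 sits at 701 to 1341 in depleted libraries and at or below 300.2 in all others, and epithelial Retnla at 283 to 654 in depleted libraries and at or below 130.1 in all others.

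The signalling chains of the IL-4 and IL-13 receptors were also higher in mesenchymal cells of depleted mice, by less than Il33. Il4ra, the chain common to both receptor types, had mesenchymal counts of 1777, 2164, 1449.6 and 2282 in depleted, 1099, 1142, 1135 and 1068 in irradiated, and 863, 1047, 741 and 924 in sham libraries. Depleted libraries were the highest, without overlap, and irradiated libraries lay above sham libraries without overlap. Means were 1918 ± 380 in depleted, 1111 ± 34.1 in irradiated and 894 ± 127 in sham libraries (SD, n = 4 each). The log2 change was 0.77 ± 0.129 for depleted against irradiated (1.70-fold), 1.09 ± 0.129 for depleted against sham and 0.32 ± 0.129 for irradiated against sham.

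Il13ra1, the signalling partner of IL-4R alpha for IL-13, had mesenchymal counts of 375, 364, 348 and 544 in depleted, 229, 261, 248 and 207 in irradiated, and 275, 230.0, 205 and 195 in sham libraries. Depleted libraries again lay above the other 8, and replicate 4 stood apart from the other 3 depleted libraries. Means were 408 ± 91.7 in depleted, 236 ± 23.3 in irradiated and 226 ± 35.5 in sham libraries (SD, n = 4 each). The log2 change was 0.77 ± 0.140 for depleted against irradiated (1.70-fold), 0.83 ± 0.140 for depleted against sham (0.70 and no longer past the threshold with macrophage markers as a covariate) and 0.07 ± 0.140 for irradiated against sham. The macrophage level (mean log2 over tested markers) was itself higher, without overlap, in depleted than in sham mesenchymal libraries, so that fit cannot separate it from the group. Il13ra2, the decoy chain, had 10 reads in the depleted group, 2 in the irradiated group and 1 in the sham group, at 2 to 3 reads in each depleted library and 0 to 1 in each of the other 8. The depleted libraries were higher without overlap, but every mesenchymal value is within the 3 reads that a count of 0 allows.

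In epithelial libraries Il4ra had 766, 829, 696 and 835 counts in depleted, 559.8, 699, 591 and 658 in irradiated, and 684, 631, 551 and 482 in sham libraries. The depleted range met the irradiated range at its lower end and lay above the sham range. The log2 change was 0.32 ± 0.101 for depleted against irradiated and 0.42 ± 0.101 for depleted against sham. The second fell to 0.17 with the mean level of leukocyte markers as a covariate and to 0.09 with that of macrophage markers (a fit chosen after seeing the data), and was then no longer past the whole-table threshold. Both marker levels (mean log2 over tested markers) were higher, without overlap, in depleted than in sham epithelial libraries, so these fits cannot separate marker level from group. The leukocyte levels came close, at 5.442 in the lowest depleted and 5.437 in the highest sham library. As sums, leukocyte markers overlapped, and macrophage markers were lower in depleted (74458 to 90963) than in sham libraries (93418 to 101778). Epithelial Il13ra1 overlapped in all groups, at 284 to 328 in depleted, 240.3 to 396 in irradiated and 259.5 to 449 in sham libraries. Epithelial Il13ra2 reached 4 reads in 1 depleted library and 3 or fewer in the other 11.

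**Figure D2:**
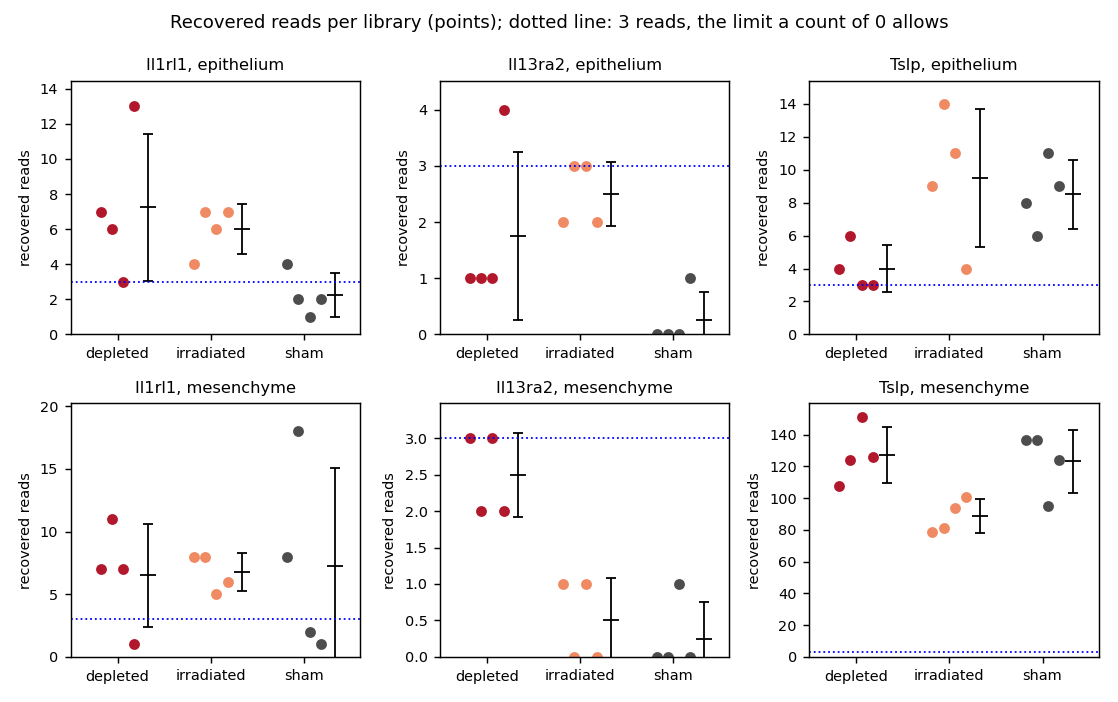
Recovered reads of Il1rl1, Il13ra2 and Tslp (y axis) in each library (points) with the mean and SD of 4 libraries (bar), for depleted, irradiated and sham mice, epithelium above and mesenchyme below; the dotted line marks 3 reads, the limit that a count of 0 allows. All 12 mesenchymal libraries held 79 or more Tslp reads, and no library of the other 5 panels held more than 18 reads.

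Retnla, the target gene of the set, was several-fold higher in epithelial cells of depleted mice. Epithelial counts were 654, 283, 299 and 518 in depleted, 82.2, 105, 86.6 and 74.0 in irradiated, and 64.4, 77.5, 90.2 and 130.1 in sham libraries. The depleted libraries lay above the other 8 and varied the most among themselves, while irradiated and sham libraries overlapped. Means were 439 ± 179 in depleted, 86.9 ± 13.0 in irradiated and 90.5 ± 28.4 in sham libraries (SD, n = 4 each). The log2 change was 2.24 ± 0.289 for depleted against irradiated, or 4.73-fold, 2.22 ± 0.289 for depleted against sham and -0.02 ± 0.289 for irradiated against sham.

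Mesenchymal Retnla was low and did not pass the filter. Libraries gave 28.7, 6.30, 10.6 and 23.2 normalised counts in depleted, 5.16, 9.11, 4.07 and 6.10 in irradiated, and 0, 0.827, 0 and 0.832 in sham libraries, from 69, 22 and 2 reads over the depleted, irradiated and sham groups. Depleted and irradiated libraries overlapped, and both lay above sham libraries. The counting could share reads between Retnla and its paralogs. Retnlg, a transcript of neutrophils, had 7.17, 27.9, 23.2 and 29.2 counts in depleted, 8.25, 23.9, 19.3 and 12.2 in irradiated, and 4.06, 6.62, 0 and 1.66 in sham mesenchymal libraries. It was above Retnla in 3 of the 4 depleted libraries, and like Retnla it was lowest in sham mice, so the 2 genes' low mesenchymal counts are uncertain. In epithelial libraries Retnlb had at most 1.3 counts, and Retnlg averaged 19.5 ± 9.48 counts in depleted, 15.7 ± 11.9 in irradiated and 3.43 ± 1.68 in sham epithelial libraries (SD, n = 4 each), well under the Retnla counts of the depleted libraries.

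Markers of other cells moved in some of these comparisons, and their values stand here beside the results. In mesenchymal libraries no gene of the leukocyte (14 tested), macrophage (12) or innate lymphoid and T cell list (7) was past the threshold between depleted and irradiated mice, and the neutrophil genes Cxcr2 and Csf3r were lower in depleted libraries. Summed leukocyte markers were 1443 to 2739 in depleted, 2008 to 3617 in irradiated and 1206 to 1988 in sham mesenchymal libraries. With their mean level as a covariate, the depleted against irradiated log2 change was 2.11 ± 0.206 for Il33, 0.83 ± 0.138 for Il4ra and 0.79 ± 0.157 for Il13ra1. Summed markers of club cells, an airway secretory type, were 8289 to 13431 in depleted, 5385 to 8189 in irradiated and 6741 to 8529 in sham mesenchymal libraries, without overlap between depleted and irradiated, and 1 of the 8 (Hp) was past the threshold. Alveolar fibroblast markers were 162390 to 203562 in depleted, 197851 to 256687 in irradiated and 229538 to 322314 in sham mesenchymal libraries. Beside Ccl11, the adventitial fibroblast marker Igfbp4 and the alveolar type 1 marker Pdpn were also past the threshold, higher in depleted than in irradiated mesenchymal libraries. The part of the club cell, fibroblast and alveolar type 1 markers in the mesenchymal values was not tested.

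In epithelial libraries no leukocyte, macrophage or club cell marker was past the threshold between depleted and irradiated mice. Summed leukocyte markers were 2474 to 3429 in depleted, 3228 to 4275 in irradiated and 2937 to 3340 in sham epithelial libraries. The eosinophil, mast cell and basophil list of 10 genes had 0 of 2 tested genes past the threshold for depleted against irradiated. For depleted against sham Gata2 rose and Hdc fell. Epx, the eosinophil peroxidase gene, had 0 reads in all 12 libraries. Ccr3 and Ms4a2 had reads in depleted and in irradiated libraries but in no sham library, while Mcpt8 had reads in sham libraries alone. Prg2 had reads in irradiated libraries alone and Fcer1a in depleted libraries alone. The list summed to 1760 to 2269 in depleted, 2186 to 2576 in irradiated and 2375 to 2654 in sham epithelial libraries. Depleted libraries lay below sham libraries in this sum. Retnla had a log2 change of 2.12 ± 0.290 for depleted against irradiated with the leukocyte level as a covariate and 2.24 ± 0.270 with the macrophage level. Club cell markers were 85683 to 110001 in depleted, 83139 to 92790 in irradiated and 74904 to 124946 in sham epithelial libraries. The innate lymphoid and T cell list, with 0 of 2 tested genes past the threshold, summed to 1481 to 1908 in depleted, 1352 to 1390 in irradiated and 1173 to 1325 in sham epithelial libraries, and depleted libraries lay above both other groups. Only 2 of its 10 genes passed the filter, Rora among them, so the sum rests largely on these and says little on lymphoid cells. Pan-mesenchymal markers also stood apart, at 9574 to 11047 in depleted, 8326 to 9017 in irradiated and 7039 to 7697 in sham epithelial libraries, and Col3a1 rose for depleted against irradiated (log2 change 0.61 ± 0.0832, limma adjusted p = 0.0032). Of the fibroblast markers, Igfbp4 (adventitial) rose by 0.58 ± 0.102 and Itga8 (alveolar) fell by 0.37 ± 0.0802 on the log2 scale in the same comparison (limma adjusted p = 0.012 and 0.049). Mesothelial markers were 778 to 1996 in depleted, 479 to 1213 in irradiated and 367 to 465 in sham epithelial libraries, and the part of the lymphoid, mesenchymal, fibroblast and mesothelial markers in the Retnla values was not tested.

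Read against all genes, the share past the threshold was small for depleted against irradiated and larger for depleted against sham. Of the 4 genes of the set tested in epithelium, 1 (Retnla) was past it for depleted against irradiated, where 0.475% of 16626 genes were past it and 0.204% were higher. For depleted against sham 2 of 4 (Retnla and Il4ra) were past it, beside 11.3% of all genes, with 6.52% higher. For irradiated against sham 0 of 4 were, beside 3.14% of all genes, with 2.26% higher. The 4 libraries of each group did not overlap for 6.41% of epithelial genes (depleted against irradiated), 16.7% (depleted against sham) and 8.83% (irradiated against sham).

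Of the 4 genes of the set tested in mesenchyme, 3 (Il33, Il4ra and Il13ra1) were past the threshold for depleted against irradiated, where 2.69% of 16624 genes were past it and 2.02% were higher. These 3 were also past it for depleted against sham, beside 15.2% of all genes, with 8.51% higher. For irradiated against sham 0 of 4 were, beside 3.80% of all genes, with 2.64% higher. The groups did not overlap for 10.02% of mesenchymal genes (depleted against irradiated), 19.3% (depleted against sham) and 11.8% (irradiated against sham). For irradiated against sham, limma, edgeR and DESeq2 each called 0 of 4 in both fractions at the adjusted threshold. At an unadjusted p under 0.05 each of the 3 gave 0 of 4 in epithelium and 1 of 4 in mesenchyme, where limma gave 2385 of 16626 and 3491 of 16624 of all tested genes. The 3 comparisons of a fraction share groups of libraries, and since the genes were picked with these contrasts known, nothing is read from the counts.

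**Figure D3:**
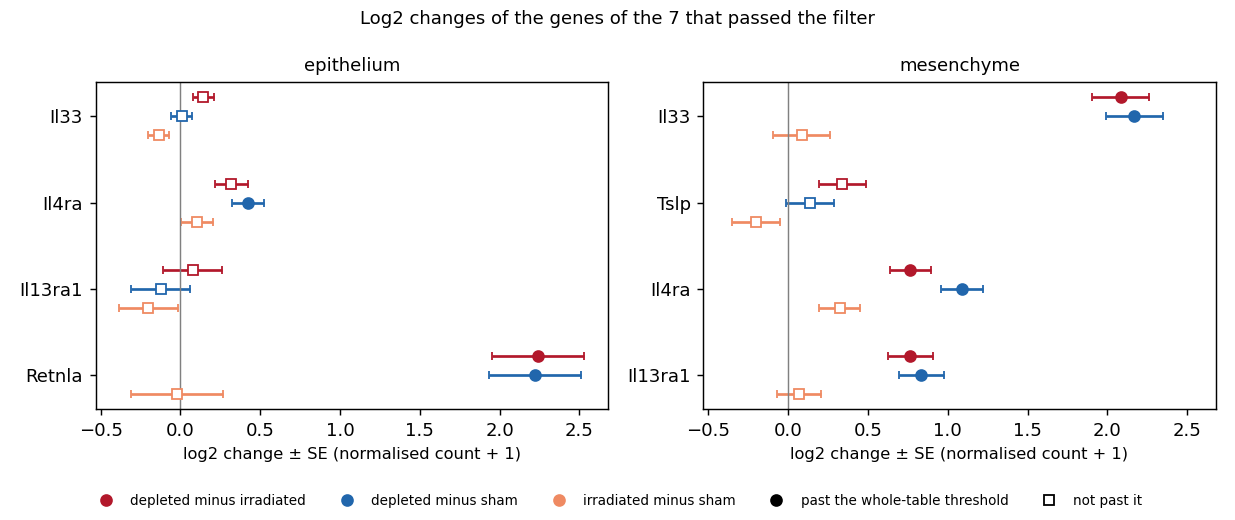
Log2 changes on the log2(normalised count + 1) scale with their SE (x axis) for the genes of the set that passed the filter, in epithelium (left) and mesenchyme (right), for depleted minus irradiated, depleted minus sham and irradiated minus sham; filled circles are past the whole-table threshold. Retnla stands at 2.24 and 2.22 in epithelium and Il33 at 2.09 and 2.17 in mesenchyme, while irradiated minus sham values lie between -0.20 and 0.32.

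Per kilobase of exon, the order of levels within a table also differed between the fractions. Over the 12 epithelial libraries Il33 averaged 887 normalised counts per kb, Retnla 343, Il4ra 111, Il13ra1 85.6, Tslp 5.28, Il1rl1 0.766 and Il13ra2 0.647. In depleted epithelial libraries, Retnla at 732 ± 299 per kb lay within 1 SD of Il33 at 918 ± 65.4 per kb (n = 4). Over the 12 mesenchymal libraries Il4ra averaged 218 per kb, Il33 174, Tslp 83.8, Il13ra1 78.2, Retnla 13.2, Il1rl1 0.973 and Il13ra2 0.469. In depleted mesenchymal libraries Il33 (360.1 ± 91.3 per kb) and Il4ra (320 ± 63.2 per kb) exchanged places, with a gap smaller than either SD.

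The rest of the type 2 pathway was read from 70 further genes in 5 lists, of which 44 were tested in epithelium and 36 in mesenchyme. For depleted against irradiated, 1 epithelial gene rose and none fell, where 0.204% of all tested genes were higher. The median log2 change was 0.06 beside 0.00 over all tested genes. In mesenchymal cells 3 rose and none fell, where 2.02% of all tested genes were higher. The median there was 0.07 beside -0.00 over all tested genes. Adjusted p-values below are from limma with Benjamini-Hochberg adjustment over the whole table.

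Among ligands, Il4, Il5, Il9, Il13 and Il25 averaged under 3.3 normalised counts in every group of both fractions, at or under the limit that a count of 0 allows. The gate excluded CD45-positive cells, so these values say nothing on ligands made by leukocytes of the same lungs. Areg (amphiregulin) averaged 253 ± 58.6 counts in depleted, 280.4 ± 60.4 in irradiated and 451 ± 90.1 in sham epithelial libraries (SD, n = 4 each). It fell for depleted against sham, with a log2 change of -0.83 ± 0.212 (limma adjusted p = 0.029).

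Among receptor chains, Il17ra, a subunit of the receptors for IL-17 and IL-25, rose in mesenchymal cells of depleted mice. Its counts were 999, 1154, 837 and 1372 in depleted, 475, 569, 517 and 382 in irradiated, and 312, 499, 262 and 329 in sham libraries, with depleted libraries above the other 8. The log2 change for depleted against irradiated was 1.16 ± 0.204 (limma adjusted p = 0.014). Il1rap, the partner of ST2, had 466 ± 76.8 counts in depleted and 346 ± 51.3 in irradiated mesenchymal libraries (SD, n = 4 each), a log2 change of 0.43 ± 0.126 with a limma adjusted p of 0.087. Crlf2, the TSLP receptor chain, had a log2 change of -0.04 ± 0.151 (limma adjusted p = 0.92). Csf2rb, the beta chain common to the IL-5 and GM-CSF receptors, rose for irradiated against sham in both fractions, with log2 changes of 1.31 ± 0.285 in epithelium (limma adjusted p = 0.021) and 1.76 ± 0.357 in mesenchyme (limma adjusted p = 0.026). Il2rg, the common gamma chain, rose for irradiated against sham in epithelium (1.06 ± 0.249, limma adjusted p = 0.025). These 2 genes are expressed by leukocytes. The leukocyte list had 4 of 13 genes higher in the same epithelial and 3 of 14 in the same mesenchymal comparison. Over all tested genes the shares higher were 2.26% and 2.64%. The part of leukocytes in the 2 genes was not tested. In the covariate fits 0 pathway genes were past the threshold for irradiated against sham. Where the levels did not overlap, these fits cannot separate marker level from group. The mesenchymal leukocyte level overlapped only narrowly, so its fit separates them little. Mean log2 leukocyte levels were 5.66 to 6.74 in irradiated and 4.05 to 5.44 in sham epithelial libraries. In mesenchymal libraries they were 6.29 to 7.30 and 5.12 to 6.31. Macrophage levels did not overlap between irradiated and sham libraries in either fraction.

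Among signalling genes, Irs2, an adaptor of the IL-4 receptor and of insulin signalling, rose in mesenchymal cells. Its counts were 4753, 4012, 4105 and 4913 in depleted, 2938, 3274, 3517 and 3589 in irradiated, and 2731, 2609.8, 2864 and 2531 in sham libraries, with depleted libraries above the other 8. The log2 change for depleted against irradiated was 0.42 ± 0.0864 (limma adjusted p = 0.018). Stat6 had log2 changes for depleted against irradiated of 0.00 ± 0.0522 in epithelium (limma adjusted p = 0.99) and -0.07 ± 0.0686 in mesenchyme (limma adjusted p = 0.63). Socs3, a feedback inhibitor of JAK signalling and the list's most abundant gene, averaged 4973 ± 833 counts in depleted, 4522 ± 1085 in irradiated and 3199 ± 297 in sham epithelial libraries (SD, n = 4 each). Jak3 and Stat5a rose for irradiated against sham in mesenchyme, by 1.00 ± 0.206 and 0.79 ± 0.184 on the log2 scale (limma adjusted p = 0.015 and 0.038).

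Among target genes, Agr2, a protein folding enzyme of mucous cells, rose in epithelial cells of depleted mice. Its counts were 69.6, 40.7, 38.4 and 46.7 in depleted, 17.6, 6.3, 6.5 and 11.3 in irradiated, and 3.9, 3.2, 10.7 and 18.7 in sham libraries, with depleted libraries above the other 8. The log2 change for depleted against irradiated was 2.20 ± 0.450 (limma adjusted p = 0.041), and the epithelial list had 0 genes past the threshold without depleted replicates 1, 2 or 4 or without irradiated replicates 2, 3 or 4. The mucin gene Muc5b averaged 3906 ± 1847 counts in depleted, 1061 ± 554 in irradiated and 2595 ± 1766 in sham epithelial libraries (SD, n = 4 each), a log2 change of 1.95 ± 0.614 for depleted against irradiated (limma adjusted p = 0.22). Chia1, an acidic chitinase and an abundant gene of the list, averaged 3052 ± 368 counts in depleted and 2836 ± 213 in irradiated epithelial libraries (limma adjusted p = 0.65).

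Ccl11 (eotaxin-1, which attracts eosinophils) rose in mesenchymal cells for irradiated against sham and again for depleted against irradiated. Its counts were 988, 899, 584 and 831 in depleted, 548, 532, 467 and 488 in irradiated, and 314, 279, 284 and 345 in sham libraries, and the 3 groups did not overlap. The log2 change was 0.67 ± 0.132 for depleted against irradiated (limma adjusted p = 0.016) and 0.74 ± 0.132 for irradiated against sham (limma adjusted p = 0.0083). Ccl11 is also a marker of adventitial fibroblasts, whose summed markers overlapped, at 44357 to 56199 in depleted, 36715 to 62852 in irradiated and 41413 to 50555 in sham libraries. Postn (periostin), a matrix protein known as a target of IL-13, had 2506 ± 577 counts in depleted, 3608 ± 433 in irradiated and 3737 ± 630 in sham mesenchymal libraries (SD, n = 4 each) and fell for depleted against sham (log2 change -0.59 ± 0.152, limma adjusted p = 0.020). The count of 3 mesenchymal genes for depleted against irradiated was 1 without depleted replicate 1 or 4, and 5 without depleted replicate 2 or 3.

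**Figure D4:**
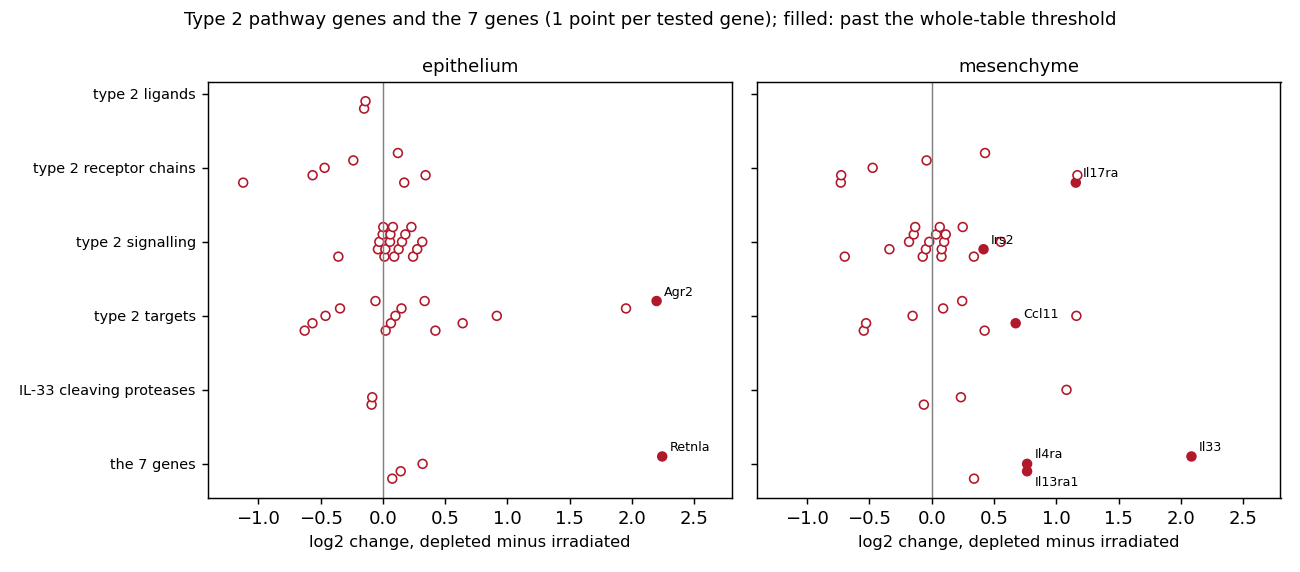
Log2 change, depleted minus irradiated, on the log2(normalised count + 1) scale (x axis) for each tested gene of the 5 type 2 pathway lists and of the 7 genes (rows), in epithelium (left) and mesenchyme (right); filled points are past the whole-table threshold and are named. Most pathway genes lie near 0, with Agr2 at 2.20 in epithelium and Il17ra at 1.16 in mesenchyme the largest filled points of the lists.

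For depleted against sham, 8 of the 44 epithelial pathway genes rose and 1 fell, and 12 of the 36 mesenchymal genes rose and 1 fell, beside 6.52% and 8.51% of all tested genes higher. The largest epithelial rises were Agr2 (2.55 ± 0.450), Chil3 (1.86 ± 0.528), Ccl11 (1.85 ± 0.459) and Csf2rb (1.65 ± 0.285) on the log2 scale. Epithelial Ccl11 was low and overlapped, at 6.77 to 25.8 counts in depleted and 1.04 to 6.83 in sham libraries. The adventitial fibroblast list, which holds Ccl11, had 6 of 12 genes higher in the same epithelial comparison. Pan-mesenchymal markers had 4 of 8 and mesothelial markers 7 of 8 higher, and their part in epithelial Ccl11 was not tested. In mesenchyme they were Csf2rb (2.93 ± 0.357), Muc5b (1.89 ± 0.299), Il17ra (1.65 ± 0.204) and Jak3 (1.55 ± 0.206). Muc5b is also on the club cell list, with 5 of 8 genes higher in the same mesenchymal comparison. Pan-epithelial markers had 4 of 10 genes higher there, and the part of these cells in mesenchymal Muc5b was not tested. Chil3 (a chitinase-like protein) and Csf2rb are also expressed by macrophages, a list with 3 of 8 genes higher and 1 lower in the epithelial and 7 of 12 higher in the mesenchymal comparison. With its level as a covariate 1 epithelial and 4 mesenchymal pathway genes were past the threshold. That fit cannot separate macrophage level from group, because the level did not overlap between depleted and sham libraries. Mean log2 macrophage levels were 7.44 to 7.91 in depleted and 6.12 to 7.07 in sham epithelial libraries. In mesenchymal libraries they were 5.92 to 6.76 and 4.24 to 5.58.

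The genes whose libraries varied most like the leading genes of the set were found by Pearson's r over the 12 libraries of a table, as a description, since the libraries share groups and scaling. For mesenchymal Il33 they were Flot1 (r = 0.969), Egfr (0.966), Cxcl5 (0.966), Gm4737 (0.962) and Ksr1 (0.962). Cxcl5, a chemokine for neutrophils, averaged 100.1 counts in depleted, 1.98 in irradiated and 0.713 in sham libraries, and Egfr, the EGF receptor, 2764 counts in depleted, 1520.0 in irradiated and 1363 in sham libraries. For epithelial Retnla they were Chl1 (r = 0.938), Socs2 (0.937), Aldh6a1 (0.916), Mt2 (0.913) and Zdhhc15 (0.911). Mt2, a metallothionein, averaged 334 counts in depleted, 96.6 in irradiated and 58.0 in sham libraries, and Socs2, a feedback inhibitor of cytokine signalling, 2265 counts in depleted, 1757 in irradiated and 1661 in sham libraries. For epithelial Il33, which varied little, they were Tmem170 (r = 0.876), Atp6v0a2 (0.843), Rad21 (0.833), Huwe1 (0.824) and Washc4 (0.822).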

How the data were processed

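RNA was sequenced in 24 libraries. For each fraction the authors deposited a table whose signal is a normalised count: the reads of a gene over the size factor of its library. Per the submitters' processing notes, cutadapt 1.5, STAR 2.2.2a, SAMtools 1.8, RSEM 1.3.0, DESeq2 and build GRCm38 were used; strand settings are not given in the sources used here. RSEM shares reads between similar genes by estimate, which can touch Retnla and its paralogs. Values within 0.001 of whole multiples of a step per column gave recovered reads, and for mesenchymal sham replicate 3 and depleted replicate 4 that step was too near 1 to tell the scale. Per the labels' protocols the libraries were made from total RNA depleted of ribosomal RNA. A symbol was matched for 48349 of the 48795 identifiers.

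Values were tested as log2(normalised count + 1) with limma 3.58.1 (trend, robust) in R 4.3.3, the 3 groups of a table in 1 fit, for genes that reached a normalised count of 10 in 4 or more of 12 libraries. The threshold was a Benjamini-Hochberg adjusted p under 0.05 over 16626 epithelial or 16624 mesenchymal genes. Fold changes are on that scale and understate the change of low genes. The scripts were tested on simulated data. Alternatives were other pseudocounts, filters and scaling, edgeR 4.0.16, DESeq2 1.42.0 on recovered reads, 2 groups alone, a replicate block, marker covariates and leaving out libraries. The 36 pairs of libraries within groups differed by more than counting error (chi-square per degree of freedom 2.25 to 13.1). Named pathway genes were those past the threshold (the 4 largest rises and falls where more than 8) and the most abundant of a list, and like genes were the 5 with the highest r. The 7 genes, the lists and the tests were chosen with earlier results of these data known.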

Additional observations from a re-analysis of the deposited data

Results flagged for a closer look

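In 42 groups of 4 libraries (7 genes, 2 fractions and 3 groups each), 4 held a library that stood apart from the other 3 beyond Dixon's 95% critical value. For normally distributed values chance gives this in about 1 group of 20. Il13ra1 in mesenchymal depleted replicate 4 was at 544 normalised counts, against 348 to 375 in the other depleted libraries. Il13ra2 in epithelial depleted replicate 4 was at 4.79, and in the epithelial sham libraries replicate 4 was at 1.04 with the other 3 at 0. Il13ra2 in mesenchymal sham replicate 3 was at 1.01 with the other 3 at 0. The Il13ra2 values rest on 4 reads, 1 read and 1 read, and the rate of 1 in 20 does not hold for groups with so few reads. No gene of the set moved one way in every library of one fraction and the other way in every library of the other fraction.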

How the results depend on the processing

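Over the 19 alternatives of each comparison the differences past the threshold among the 7 genes stayed past it, in the same direction, with 2 exceptions, both for depleted against sham: epithelial Il4ra was not past it with either marker covariate (0.17 and 0.09), and mesenchymal Il13ra1 was not with the macrophage covariate (0.70). In each of these fits the covariate did not overlap between depleted and sham libraries, so marker level and group cannot be separated. For depleted against irradiated the range of log2 changes was 2.02 to 2.42 for epithelial Retnla, 1.95 to 2.26 for mesenchymal Il33, 0.67 to 0.89 for mesenchymal Il4ra and 0.62 to 0.83 for mesenchymal Il13ra1. Epithelial Il4ra came past the threshold for depleted against irradiated with the leukocyte covariate alone (0.41). Of the 15 log2 changes that were not past the threshold, 8 took both signs over the alternatives: epithelial Il13ra1 in all 3 comparisons (-0.02 to 0.22 for depleted against irradiated, -0.25 to 0.15 for depleted against sham, -0.35 to 0.17 for irradiated against sham), epithelial Il33 for depleted against sham (-0.03 to 0.09), and, for irradiated against sham, epithelial Il4ra (-0.23 to 0.18) and Retnla (-0.17 to 0.46) and mesenchymal Il33 (-0.10 to 0.19) and Il13ra1 (-0.06 to 0.17). None of the 9 past the threshold did.

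Counts past the threshold moved more, and they are given below over all tested genes and then over the pathway list, with causes not tested. Apart from the mesenchymal leukocyte level, the marker covariates did not overlap between sham and either other group. The other covariate fits against sham therefore cannot separate marker level from group, and the mesenchymal leukocyte fits do so only in part. For epithelial depleted against irradiated (79 and 1), they were 288 genes with DESeq2, 32 with the 2 groups alone, and 52 and 0 with a mean of at least 50. For epithelial depleted against sham (1876 and 9), they were 326 and 1 with the leukocyte covariate and 148 and 1 with the macrophage covariate, which was added after seeing the data. For epithelial irradiated against sham (522 and 2), they were 816 and 6 with DESeq2, 40 and 0 with the leukocyte covariate and 43 and 0 with the macrophage covariate, and the list had 1 with a mean of at least 50. For mesenchymal depleted against irradiated (448 and 3), they were 792 and 7 with DESeq2, 291 genes with the 2 groups alone and 220 with the leukocyte covariate, and the list had 5 with the macrophage covariate. For mesenchymal depleted against sham (2528 and 13), they were 1520 genes with the leukocyte covariate and 376 and 4 with the macrophage covariate. For mesenchymal irradiated against sham (631 and 4), they were 1055 and 9 with DESeq2, 53 and 0 with the leukocyte covariate and 35 and 0 with the macrophage covariate.

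Leaving out 1 library at a time gave, over all genes, 36 to 199 for epithelial depleted against irradiated, 1187 to 1854 for depleted against sham and 214 to 653 for irradiated against sham, and in mesenchyme 182 to 806, 1571 to 2732 and 184 to 1073 for the same comparisons. Over the pathway list the ranges were 0 to 1, 3 to 11 and 0 to 5 in epithelium, and 1 to 5, 9 to 17 and 1 to 9 in mesenchyme. Deviations from the group mean were correlated between same-numbered libraries. Correlations lay on both sides of 0, at -0.111 to 0.152 over 12 epithelial and -0.0523 to 0.172 over 12 mesenchymal pairs. The own number was best in 4 of 12 in each fraction, where chance gives 1 in 4. The 3 mesenchymal pairs of replicate 2 had 0.103 to 0.172, and replicate 2 had the highest mean leukocyte and macrophage marker level in all 6 groups. Since not every pair passed 0.1 and the labels state no pairing, the numbers were not taken to pair the samples. With the replicate block the list had 6 genes past the threshold for epithelial irradiated against sham, 7 for mesenchymal irradiated against sham (1048 over all genes) and 7 for mesenchymal depleted against irradiated. Depth limits Il1rl1, Il13ra2, epithelial Tslp and mesenchymal Retnla, which rest on few reads, and with 4 mice per group small differences can go undetected.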
